A study of Mus musculus with 15 samples.

Results

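The data described here are the brain transcriptomes of the 5 wild-type (WT) embryos of a series of 15 mouse embryos at E16.5 (the embryonic day). They were chosen by their genotype label alone, and no measured value entered the choice. The series contained 5 WT, 5 Tbr1 hetero and 5 Tbr1 homo embryos, all labeled C57BL/6J. The mutants carried, on 1 or on both alleles, the K228E substitution in TBR1, a T-box transcription factor of deep-layer cortical neurons. WT embryos are labeled as carrying the wild-type alleles. Of the WT embryos, 3 were female (WT1, WT2 and WT3) and 2 were male (WT4 and WT5), and the mutant groups had the same sexes. The tissue label was brain. The design text of the series says whole brain, the methods of the study say brain and its results say forebrain. Levels of markers of other brain regions are therefore given below, per embryo or as a range over the embryos. Litters were not given in the labels, so the spread reported here is the spread between these 5 samples. The mutant embryos were used only to ask how the same genes varied within other groups of 5 and whether sex differences recurred; no level was compared between genotypes.

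At E16.5 the mouse cortex is still being built. Radial glia, the stem cells that line the ventricles, divide and give rise to intermediate progenitors and neurons, and young neurons migrate along radial glial fibers and extend axons. This work needs large amounts of tubulin, actin and microtubule-associated proteins, and growing cells need ribosomes and mitochondria. Astrocytes and myelinating oligodendrocytes arise mostly later. The sample also holds blood vessels, blood, microglia, the meninges that cover the brain and the choroid plexus that secretes cerebrospinal fluid.

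Expression was measured by RNA-Seq of libraries made from total RNA with a TruSeq kit, and levels hold for the RNA that the kit captured. Each value is a normalized read count (the estimated reads of a gene divided by a size factor of the embryo). The values of an embryo summed to between 30722764 and 31508175. In the lowest values above 0, which cluster near the worth of 1 read, that worth was 0.900 to 1.19, and it puts the depth between 26272829 reads (WT4) and 34125520 reads (WT1). Of 19475 genes in the table, 17239 were above 0 in all 5 WT embryos and 27 were at 0 in all of them. A mean of at least 100 was reached by 12624 genes (64.8%) and a mean of at least 10000 by 433.

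WT3 stood apart from the other WT embryos. On principal components of the log2 values, the first component held 47.7% of the variance and placed WT3 at 39.2 and the other embryos between -16.4 and -2.89. The second held 28.8% and separated WT1 and WT2 (-17.5 and -17.3) from WT4 and WT5 (17.3 and 17.8), with WT3 at -0.283. WT1 and WT2 were the most alike pair (36 genes over 1 log2 unit apart), and WT3 and WT4 the least alike (483 genes). Relative to the median of the other 4 embryos, WT3 had 275 genes lower and 9 higher by over 1 log2 unit. Values that rest on WT3 are therefore given with and without it, or per embryo.

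Some genes of this table have a near-identical copy elsewhere in the genome, and short reads from such copies cannot be assigned to one of them. The stretches below (60 bases each, GRCm38, 5′ to 3′) are shown because the same letters occur in both genes of a pair, and those pairs were among the most abundant or most variable genes of the WT brain. The first is shared by mt-Co3, a mitochondrially encoded subunit of cytochrome c oxidase (chrM:8999-9058, plus strand), and the nuclear pseudogene Gm28437 (chr1:24613520-24613579, minus strand). The second is shared by mt-Atp6, a mitochondrially encoded subunit of ATP synthase (chrM:8266-8325, plus strand), and the nuclear pseudogene Gm10925 (chr1:24614253-24614312, minus strand). The third is shared by Tom1, an endosomal trafficking gene (chr8:75057155-75057214, plus strand), and the processed pseudogene Gm5884 (chr6:128645678-128645737, plus strand).
mt-Co3 and Gm28437: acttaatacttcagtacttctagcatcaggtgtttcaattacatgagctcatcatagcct
mt-Atp6 and Gm10925: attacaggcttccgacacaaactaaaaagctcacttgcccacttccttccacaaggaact
Tom1 and Gm5884: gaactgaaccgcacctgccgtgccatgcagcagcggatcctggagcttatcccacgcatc

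Tuba1a, the main alpha-tubulin of young neurons, had the highest normalized read count of all genes. It lies at chr15:98949837-98953703 (minus strand, GRCm38). Its values were 302668, 297020, 312587, 293347 and 283930 in WT1 to WT5, and the mean was 297910 ± 10666 (SD, n = 5). The 5 embryos thus differed little, with a coefficient of variation (CV) of 3.58%. Of its 31-base subsequences, 78.6% also occurred in another gene, which limits how well reads of alpha-tubulin genes can be told apart. mt-Co1, the mitochondrially encoded catalytic subunit of cytochrome c oxidase, came next with 228144 ± 10148. Eef1a1, the elongation factor that brings aminoacyl-tRNA to the ribosome, had a mean of 177301 ± 8195. Tubb2b, a beta-tubulin of migrating neurons, had 160484 ± 3435, and its values in WT1 to WT5 (161756, 162095, 164696, 156730 and 157142) spanned a CV of 2.14%.

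The next genes by normalized read count were Tubb5 (another beta-tubulin, 96754 ± 5833), mt-Cytb (cytochrome b, 93725 ± 6364), Map1b (a microtubule-associated protein of growing axons, 92274 ± 7080.2), Actg1 (gamma-actin, 82201 ± 5289), mt-Atp6 (80412 ± 3902) and Eef2 (the translocation factor of translation, 76323 ± 4592). Dpysl3, a cytoskeletal regulator of growth cones, the constitutive chaperone Hspa8, and the neuronal genes Tubb3, Stmn1, Dcx and Mapt followed within the 24 genes whose mean was at least 50000. The order of neighbors was not fixed in every embryo. In WT4, Map1b reached 103287 and Tubb5 92285, whereas in WT1 Tubb5 reached 98892 and Map1b 89062.

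A long transcript gives more reads than a short one at the same number of molecules. Levels that compare genes were therefore computed as the value per kilobase of transcript, scaled to a sum of 1000000 over the genes of an embryo (ppm). With the median length of a gene's protein-coding transcripts, the nuclear genes of highest level were Eef1a1 (11441), Tuba1a (9158), Hsp90ab1 (5169.8), Eif4g2 (4531.8) and Actg1 (4461.5). Behind them stood Tubb2b (4076.9), the imprinted proteolipid gene Nnat (3976), Stmn1 (3543), Gm28437 (3305) and Actb (3257). The median length is pulled down where a gene has short transcript fragments. With the principal transcript of each gene, an alternative added after the data were seen, Tuba1a led with 13449, followed by mt-Co1 (12023), mt-Atp6 (9615), Eef1a1 (8045), mt-Co2 (7335) and, after mt-Atp8 in sixth place, Eif4g2 (6750). The level of Hsp90ab1, a cytosolic chaperone, was 1849.9 on that scale. Map1b, seventh by read count, had a principal-transcript level of 636 and ranked 181.

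**Figure D1:**
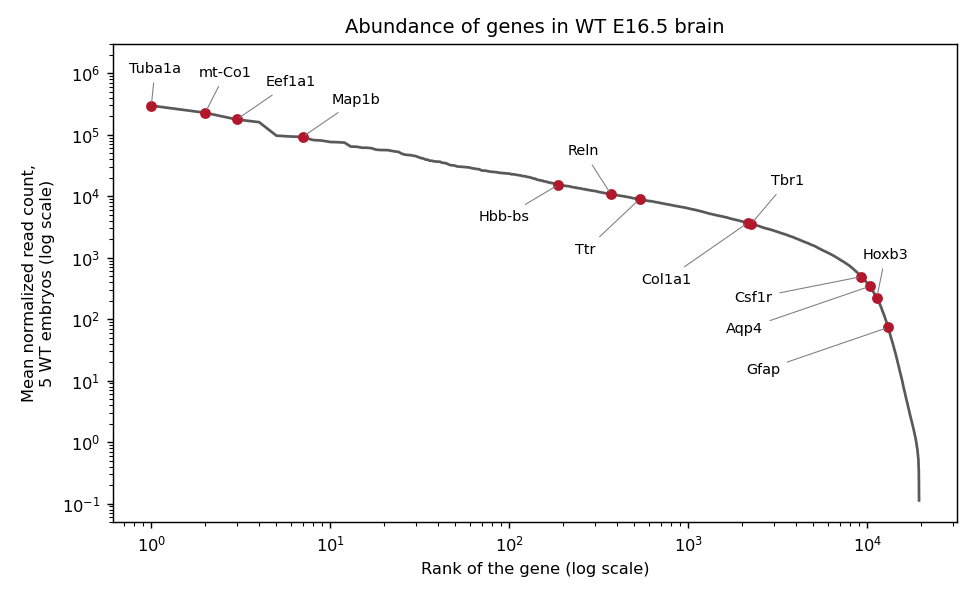
Mean normalized read count of every listed gene in the 5 WT embryos (vertical axis, log scale) against its rank (horizontal axis, log scale), with named genes marked. The curve starts at Tuba1a with 297910 and passes a mean of 10000 after 433 genes.

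The RNA captured from the WT brain was not dominated by a few genes. The 10 genes of highest count held 4.46% ± 0.07 (SD, n = 5) of the summed normalized read counts, the 100 highest held 14.7% ± 0.07, and the 1000 highest held 43.9% ± 0.25. On the length-scaled level, the corresponding shares were 6.39%, 22.0% and 54.5%. The 13 mitochondrially encoded genes together held 2.53%, 2.44%, 2.31%, 2.63% and 2.50% of the summed counts in WT1 to WT5, and 4.66% of the summed level. Tubulin genes held 2.26% ± 0.06 of the counts. Cytosolic ribosomal protein genes held 2.03% ± 0.16 of the counts and 4.72% of the level, and their share was 2.17%, 2.195% and 2.08% in the females and 1.85% and 1.88% in the males.

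Among 61 protein-coding gene families with at least 5 listed genes, the mitochondrially encoded genes had the highest median level (3101 ppm, 13 genes). The 14-3-3 proteins, phosphoserine-binding adaptors, came next with a median of 617 (6 genes), led by Ywhaz at 1986 and Ywhae at 1324. Cytosolic ribosomal proteins had a median of 550 over 83 genes, of which 79 reached a mean of 5. The TRiC chaperonin subunits, which fold tubulin and actin, had a median of 344 (8 genes), with Cct2 at 748 and Cct5 at 415. Families of pre-mRNA processing followed, the heterogeneous nuclear ribonucleoproteins at 276 (20 genes) and the SR splicing factors at 253 (11 genes). ATP synthase subunits (204), complex IV subunits (202), complex III subunits (184) and elongation factors (155) completed the 10 highest families. Stathmins, microtubule-destabilizing proteins of growing neurons, had too few members (4) to be ordered, but their median level was 721.

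Families of regulators were listed broadly and at lower level. C2H2 zinc finger genes of the Zfp group had a median level of 14.0 over 355 genes, and 316 of them reached a mean of 100. SOX factors had a median of 11.8, led by Sox4 (303) and Sox11 (198), which are active in young neurons. POU factors had 9.76, LIM homeobox factors 11.0, forkhead factors 2.13 and Wnt ligands 1.44. Subunits of AMPA, kainate and NMDA receptors had a median of 34.6, with Grin2b, the NMDA receptor subunit typical of the fetal brain, at 426 and Gria2 at 185. GABA-A receptor subunits had a median of 7.53 and voltage-gated sodium channels 6.73.

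The families of lowest level were those of sensory receptors and of skin. Olfactory receptors had a median level of 0.0381 and 37 of 46 listed genes had a mean under 5. The highest of them was Olfr613 with a level of 10.6. Vomeronasal receptors had a median of 0.0424 (20 genes, 9 with a mean of at least 5), keratins 0.113 (32 genes), keratin-associated proteins 0.118 (8 genes, none with a mean of 5) and taste receptors 0.171 (6 genes). Chemokines (0.225), toll-like receptors (0.248) and interleukins (0.282) were next. Low medians still held members of high level, for example the chemokine genes Ccl27a (187) and Cx3cl1 (139). Replication-dependent histone genes had a median of 0.481, with 28 of 56 genes under a mean of 5. How well the library preparation captured their transcripts was not tested, so their low level is a level in these libraries only.

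Genes that mark neurons as a class were abundant, and most were highest in WT4. The 15 pan-neuronal genes summed to 398049, 381445, 409209, 443388 and 410932 normalized read counts in WT1 to WT5, a ratio of 1.16 between the highest and the lowest embryo. Tubb3, the neuronal beta-tubulin, was at 65647, 62554, 66699, 63971 and 61048. Dcx, a microtubule protein of migrating neurons, was at 51834, 54325, 61720, 55673 and 57827. Of the 15 genes, 11 were highest in WT4, against 28.5% of the 12624 genes whose mean reached 100, and the mean log2 value of the list was 14.32 in WT4 and 13.97 to 14.07 in the others. Nefl, the light neurofilament subunit of long axons, ranged from 4956 in WT3 to 13741 in WT4 (9056, 7154 and 6757 in WT1, WT2 and WT5).

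Markers of cortical glutamatergic neurons were highest in WT3 and lowest in WT4. The 16 genes summed to 66144, 71364, 85453, 51379 and 64327. Of the 16, 13 had their highest value in WT3, against 29.5% of the 12624 genes whose mean reached 100. Neurod6, a transcription factor of cortical projection neurons, was at 6974, 8271, 11092, 3502 and 7622. Pou3f3, a factor of upper-layer neurons, was at 8080.4, 8589.6, 10522, 5564 and 6741, and Bcl11b, a factor of corticospinal neurons, at 7401, 8706, 9593, 6054 and 5816. All 3 were highest in WT3. Slc17a7, the glutamate transporter that dominates in the adult cortex, was at 525 to 858, and Slc17a6, which is used earlier, at 3466 to 5413.

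Tbr1 itself followed the other cortical genes. Its normalized read counts were 3517, 4122, 4871, 2097 and 3079 in WT1 to WT5 (3537 ± 1049, CV 29.7%), and it ranked 2239 by mean. Reln, which encodes the secreted guidance protein reelin, was by contrast nearly level at 10821, 10551, 10726, 10831 and 10906 (10767 ± 136, CV 1.27%), and ranked 370. The other Cajal-Retzius list genes did not share that evenness, since Ebf3 ranged from 2615 in WT3 to 7686 in WT4.

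The summed markers of inhibitory neurons and of the striatum were lowest in WT5. Of their members, 5 of the 15 and 5 of the 12 were lowest there, against 16.4% of the 12624 genes whose mean reached 100. The 15 GABAergic genes summed to 37347, 37528, 41378, 33972 and 29107. Gad1 and Gad2, the enzymes that make GABA, had means of 5177 ± 389 and 4229 ± 314, whereas Meis2, a factor of striatal and olfactory bulb neurons, was at 10357, 10929, 10096, 9257 and 5625. Dlx1, a factor of the ganglionic eminences, was highest in WT3 (7525) and lowest in WT4 (3038). The 12 striatal genes summed to 11523, 11308, 11343, 10867 and 9138, led by Foxp1 at 3426 ± 388.

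Radial glia markers were even in sum, whereas those of intermediate progenitors were less so. The 14 radial glia genes summed to 69673, 70814, 71965, 70544 and 67342, a ratio of 1.07. Fabp7, a brain fatty-acid binding protein, had a mean of 14946 ± 1639, the receptor phosphatase Ptprz1 14714 ± 1728 and the intermediate filament Vim 9983 ± 1434. The 8 intermediate progenitor genes summed to 13152, 13854, 16228, 11522 and 13117, a ratio of 1.41. Eomes, their defining factor, was at 1527, 1794, 2441, 737 and 1515, highest in WT3 and lowest in WT4, as Tbr1 was.

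Markers of mature glia were low, whereas genes of early glia reached higher values. Gfap, the filament of mature astrocytes, was at 31.4, 60.3, 90.2, 94.5 and 91.0, and the water channel Aqp4 at 328, 260, 135, 741 and 245. Mobp, a late myelin gene, was at 0.945 to 3.95, whereas Mbp reached 1033, 999.6, 891, 1509 and 1003. Sparcl1 led the astrocyte list with 7848 ± 2677, lowest in WT3 (4580) and highest in WT4 (11841). Pdgfra, the receptor of oligodendrocyte precursors that meningeal cells also express, was at 894 in WT3 and between 1823 and 2073 in the other 4 embryos. Microglial genes were low in every embryo, with a summed value of 1824 to 2759 over 15 genes and Csf1r, the receptor on which microglia depend, at 434 to 557. Mrc1, a receptor of macrophages at the border of the brain, was at 447, 409.8, 33.3, 339 and 534, with WT3 far below the others.

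Blood vessel genes were present in all embryos at lower values in WT3. The 13 endothelial genes summed to 11487, 12933, 7633, 10589 and 11719. Of the 13, 12 were lowest in WT3, against 22.5% of the 12624 genes whose mean reached 100. The 11 pericyte and smooth muscle genes summed to 10904, 11025, 7186, 9553 and 9988, and all 11 were lowest in WT3. In bulk tissue, fewer cells of a type and less RNA per cell cannot be told apart, and this holds for every list below.

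Markers of the tissues that cover the brain differed widely between embryos and were lowest in WT3. The 13 meningeal fibroblast genes summed to 46622, 32421, 2156, 14946 and 16294, a ratio of 21.6. All 13 were lowest in WT3, against 22.5% of the 12624 genes whose mean reached 100. Col1a1, the fibrillar collagen chain at chr11:94936224-94953042 (plus strand), was at 10912, 4042, 23.4, 1676 and 1758. Col3a1 was at 8865, 7087, 83.8, 2852 and 2731, and Igf2, the growth factor made by meninges and choroid plexus, at 11199, 9916, 1142, 4917 and 5516. These genes fell into the same order, with WT1 and WT2 highest, WT4 and WT5 between, and WT3 lowest. Choroid plexus genes showed part of that pattern. The 12 genes summed to 26338, 18872, 3104, 6587 and 15094, and 11 of 12 were lowest in WT3. Ttr, the thyroid hormone carrier of choroid plexus epithelium, was at 19278, 12898, 314, 2361 and 10024, so WT4 was also low. Igfbp2 and Otx2, which other brain cells express too, differed less (1885 to 3707 and 588 to 1055).

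**Figure D2:**
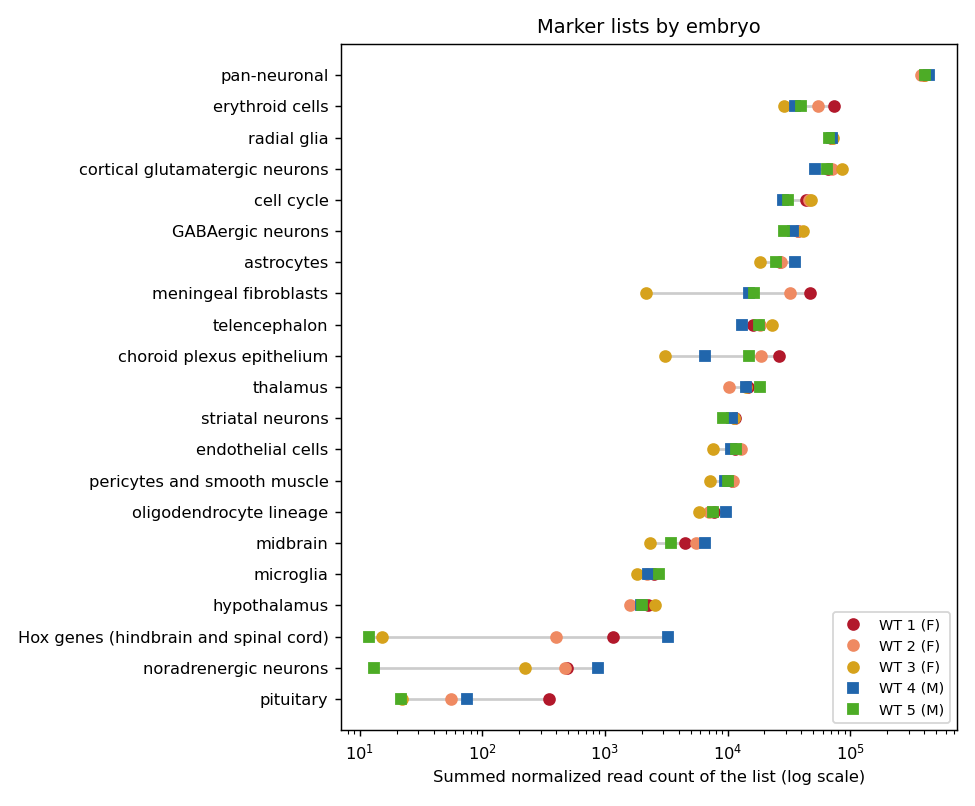
Summed normalized read count of selected marker lists (horizontal axis, log scale), with 1 row per list, 1 point per WT embryo (circles for females, squares for males) and a gray line from the lowest to the highest embryo. Points of the pan-neuronal and radial glia lists lie close together, whereas the meningeal, choroid plexus and Hox lists spread widely, with WT3 lowest for the meningeal list (2156 against 14946 to 46622).

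Region markers also differed between the embryos. The 8 telencephalic genes summed to 16226, 18466, 22828, 13063 and 18039. The 10 midbrain genes were highest where those were lowest and the reverse, and summed to 4537, 5522, 2321, 6602 and 3451. En2, a midbrain and cerebellar factor, was at 760.3, 1287, 249, 1315 and 248. The 19 listed Hox genes, which are transcribed in hindbrain and spinal cord but not in forebrain, summed to 1154, 396, 15.1, 3288 and 11.9. Hoxb3 was at 297, 118, 1.91, 702 and 0, and Hoxa5 at 52.1, 8.55, 1.08, 406 and 0. WT3 and WT5 were thus close to 0 for Hox genes, and WT4 was highest. Noradrenergic genes, which mark the locus coeruleus of the hindbrain, summed to 487, 475, 224, 873 and 13.03 in WT1 to WT5. WT3 was thus not near 0 for that list. Hox genes were measured mainly in WT1, WT2 and WT4, in a tissue labeled brain. The part of hindbrain genes in other differences between embryos was not tested.

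Other regions differed to unequal degrees. The 12 cerebellar and rhombic lip genes summed to 14598, 14045, 14116, 14105 and 12079.8, led by Zic1 (6846 ± 803), which is also expressed in meninges and septum. Atoh1, the defining factor of granule cell precursors, was at 57.1, 83.7, 15.2, 85.7 and 1.87. Thalamic genes summed to 10276 to 18414, with Tcf7l2 at 6596, 3018, 6187, 4993 and 9038. Th, the enzyme that makes dopamine precursors, was at 132 to 318. Pituitary genes summed to 21.7 to 74.9 except in WT1 (347), where Gh and Cga, hormone genes of the pituitary, were at 57.3 and 51.3 and were listed at 0 in the other 4. The hypothalamic list, led by Otp, summed to 1585 to 2575, and the subplate list, led by Nr4a2, to 3369 to 4551. Dopaminergic genes summed to 3114, 2728, 1985, 2963 and 3439.8 in WT1 to WT5, a ratio of 1.73 between the highest and lowest embryo. Serotonergic genes summed to 1391, 1280, 648, 2302 and 1365 (ratio 3.55), and cholinergic genes to 2321, 1597, 1630, 2633 and 961 (ratio 2.74). The ratio of the midbrain list was 2.84. Serotonergic genes were lowest in WT3 and highest in WT4, as the midbrain list was. Dopaminergic genes were also lowest in WT3 but highest in WT5, and cholinergic genes highest in WT4 but lowest in WT5. Pineal genes summed to no more than 219.8. Markers of tissues outside the brain were low, with summed values of 119 to 324 for skeletal muscle, 67.5 to 273 for skin and 88.5 to 195 for retina and lens, and with Alb, the liver albumin, at no more than 1.19. Bone and cartilage genes summed to 2488 to 3094, almost wholly from Col2a1 (1593 ± 180.4) and Sox9 (1054 ± 121), which brain cells also express. Genes of neural crest and peripheral nerve summed to 919.6 to 2310.3. The liver and yolk sac list was made up almost wholly of Ttr.

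Red blood cell genes were abundant in all 5 embryos. Hbb-bs and Hbb-bt are adult beta-globins, and Hba-a1 and Hba-a2 are neighboring adult alpha-globin genes that encode the same chain, whereas Hbb-y, Hbb-bh1 and Hba-x are used in the yolk sac. The coding sequences of Hba-a1 and Hba-a2 differed at 1 of 426 bases (99.8% identity), and coding bases 351 to 410 of each are shown because they hold that base, in capitals (GRCm38, plus strand, chr11:32284313-32284372 and chr11:32297130-32297189).
Hba-a1: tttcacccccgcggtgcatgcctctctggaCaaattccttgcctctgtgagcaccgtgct
Hba-a2: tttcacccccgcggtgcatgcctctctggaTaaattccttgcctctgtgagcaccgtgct

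Hbb-bs was at 23771, 18325, 9904, 11468 and 13497, and the 2 alpha-globin genes summed to 39527.6, 29026.6, 14805, 19051.9 and 20782.9 (CV 39.8%). WT1 was highest and WT3 lowest for each adult globin gene. The embryonic genes were far lower, with Hbb-y at 101, 66.5, 34.8, 12.0 and 16.3, Hba-x at 43.5, 24.2, 16.3, 7.09 and 10.2, and Hbb-bh1 at no more than 1.82. Alas2, the heme synthesis enzyme of red cell precursors, was at 713, 461, 321, 395 and 480.4, in the same order at its ends. The 11 listed erythroid genes summed to 28929.9 in WT3 and 35190.0 in WT4, a smaller gap than between the same embryos for the meningeal list.

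The promoters of these genes are printed because the adult genes moved together across embryos and the embryonic ones were low. Shown are bases 95 to 16 before the start in RefSeq (GRCm38.p6), with the letters CCAAT and ATATAA in capitals. The windows lie at chr11:32283577-32283656, chr11:32296397-32296476 and chr11:32276505-32276584 (plus strand) for Hba-a1, Hba-a2 and Hba-x, and at chr7:103827944-103828023, chr7:103813939-103814018 and chr7:103853223-103853302 (minus strand) for Hbb-bs, Hbb-bt and Hbb-y.
Hba-a1: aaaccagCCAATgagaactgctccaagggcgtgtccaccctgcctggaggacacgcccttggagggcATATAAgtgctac
Hba-a2: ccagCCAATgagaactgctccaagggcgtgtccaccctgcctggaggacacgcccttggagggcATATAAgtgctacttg
Hbb-bs: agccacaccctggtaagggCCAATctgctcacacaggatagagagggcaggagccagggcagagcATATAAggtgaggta
Hbb-bt: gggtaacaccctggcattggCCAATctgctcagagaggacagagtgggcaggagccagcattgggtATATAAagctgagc
Hba-x: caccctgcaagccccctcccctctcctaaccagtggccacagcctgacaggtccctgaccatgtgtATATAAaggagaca
Hbb-y: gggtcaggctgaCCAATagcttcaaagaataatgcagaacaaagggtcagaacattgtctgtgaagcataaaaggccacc

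The windows of all 4 adult globin genes held both motifs, and those of Alas2 and Epb42, the erythroid genes other than globins with a window in the RefSeq table, held neither. Counted on both strands, ATATAA occurred in 3.35%, CCAAT in 16.49% and both in 0.569% of 32851 windows of that length, and both occurred in 0.324% of the 16983 windows of genes in this table. The Hba-x window held no CCAAT and the Hbb-y window no ATATAA. These matches describe the letters and do not mark binding sites.

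Stress and cell cycle genes were compared as well. The 9 heat shock genes summed to 110113 to 119140 (ratio 1.08), with inducible Hspa1a at 194 to 351, and the 13 hypoxia genes to 21052 to 24508. The 10 interferon response genes summed to 611 to 905. The 20 listed immediate early genes summed to 5207 to 6303, with Fos at 19.6 to 51.1. The 28 cell cycle genes summed to 43769.5, 46509.5, 47593, 28092 and 31297, with the 3 females above the 2 males. Mki67, the proliferation marker, was at 5062, 5358, 5591, 2917 and 3522, and Top2a, a topoisomerase of dividing cells, at 4686, 5140.4, 5319, 2663 and 2967.

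Most genes varied little between WT embryos. Among the 12624 genes whose mean was 100 or more, the SD of log2(value + 1) had a median of 0.122 (quartiles 0.0796 and 0.199), and the CV had a median of 8.46%. The SD was under 0.1 for 4808 genes (38.1%), above 0.5 for 458 (3.63%) and above 1 for 117 (0.927%). Without WT3, 290 genes were above 0.5 and 50 above 1. The median SD fell with the mean value, from 0.232 between 100 and 300 to 0.0992 between 1000 and 3000, and stayed near that for more abundant genes. It was 2.86 times the SD that read counting alone would give, in the median.

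**Figure D3:**
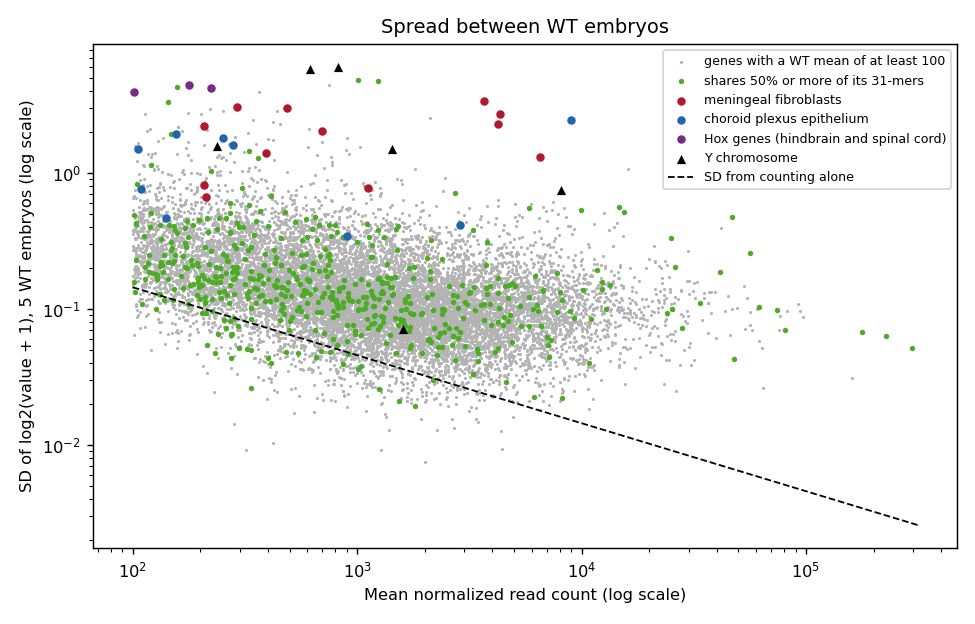
SD of log2(value + 1) over the 5 WT embryos (vertical axis, log scale) against the mean normalized read count (horizontal axis, log scale), with 1 point per gene of the 12624, the SD from counting alone as a dashed line, and colors for genes that share at least 50% of their 31-base subsequences, for the meningeal, choroid plexus and Hox lists and for Y-linked genes (triangles). The median gene has an SD of 0.122, and 117 genes lie above 1.

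The 12 genes of largest SD fell into a few kinds. Eif2s3y (SD 6.02) and Ddx3y (5.799) are Y-linked, and Gm26992 (4.86), at chrX:103422010-103481705, was high in the females only. Hoxd3 (4.40), Hoxb3 (4.20) and Hoxa3 (3.96) are Hox genes, of which Hoxd3 was at 248, 87.5, 0, 556 and 0. Slc22a6 (3.95), an organic anion transporter, was at 448, 667, 0, 267 and 442, and Col1a1 had an SD of 3.37. Slc22a6 and Col1a1 were lowest in WT3. Gm10925 (4.71), Rps12 (4.41), Gm5884 (4.31) and Gm10131 (3.35) have near-identical copies elsewhere. The 12th and 13th genes, Gm10131 and Aldh1a2, the retinoic acid enzyme of meninges, had SDs of 3.35 and 3.06.

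**Figure D4:**
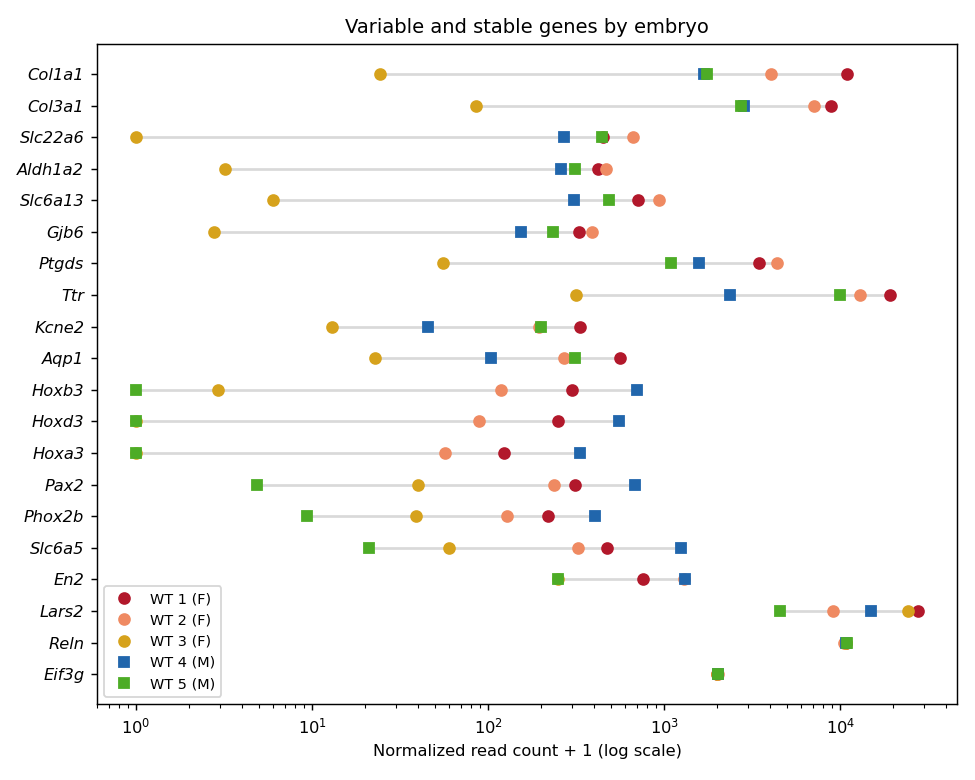
Normalized read count + 1 (horizontal axis, log scale) of genes chosen after their values were seen, with 1 row per gene, 1 point per WT embryo (circles for females, squares for males) and a gray line from the lowest to the highest embryo. The genes from Col1a1 to Aqp1 are lowest in WT3, Hoxd3 and Hoxa3 are at a count of 0 in WT3 and WT5, and the points of Reln and Eif3g nearly coincide.

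The 117 genes with an SD above 1 were mostly lowest in WT3. This was so for 84 of them (71.8%), against 22.5% of all 12624 genes, and 45 of the 117 were highest in WT1, 35 in WT2, 24 in WT4, 9 in WT5 and 4 in WT3. Among the 100 most variable genes were 9 of the meningeal list (Col1a1, Aldh1a2, Slc6a13, Col3a1, Col1a2, Lum, Dcn, Ogn and Igf2), 5 of the choroid plexus list (Ttr, Kcne2, Aqp1, Clic6 and Folr1), 3 Hox genes and 4 Y-linked genes. They also held 8 of the 34 collagens and 8 of the 235 solute carriers among the 12624 genes. Collagens as a family had a median SD of 0.558 and laminins 0.461 compared with 0.0526 for TRiC subunits and 0.123 for ribosomal proteins.

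The same genes also varied within the other genotypes. Each of those groups was taken around its own mean, and no embryo of them had been used to choose the genes. The 117 genes had a median SD of 1.51 in WT, 0.883 among the 5 hetero embryos and 1.58 among the 5 homo embryos. An SD above 0.5 in both mutant groups was found for 103 of them (88.0%), against 1.80% of all 12624 genes. The median SD of all 12624 genes was 0.102 in hetero and 0.1101 in homo embryos. The 117 include 4 Y-linked genes and Gm26992, which differ by sex. Each mutant group also had 3 females and 2 males, so the spread of these sex-linked genes there was set in advance. Col1a1 had an SD of 1.09 in hetero and 3.71 in homo embryos, and Hoxd3 3.85 and 3.24. Rps12, with a copy elsewhere, had 0.578 and 4.37.

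For 2 pairs of near-identical genes whose means were of the same order, the spread was much smaller once their values were added together, an alternative added after the data were seen. mt-Co3 was at 76187, 49176, 52257, 52792 and 50888 (CV 20.0%) and Gm28437 at 25198, 55870, 48201, 54488 and 49608 (CV 26.6%). Their sum was 101385, 105046, 100458, 107280 and 100496, with a CV of 2.99%. Gm5884 was at 386, 0, 347, 0 and 52.3 and Tom1 at 130, 438, 54.8, 587 and 438, and the SD of log2 fell from 4.31 and 1.45 to 0.211 for their sum. Gm10925 was at 0, 804, 2989, 1472 and 935, and the ribosomal protein gene Rps12 at 1039, 487, 929, 1281 and 0. Among listed genes, mt-Atp6 and Rps12-ps3 share most with them, 100% and 21.2% of their 31-base subsequences. mt-Atp6 and Rps12-ps3 had means of 80412 and 7791, far above 1240 and 747. A sum with them therefore says nothing of the spread of the smaller gene. The sequence stretches printed above are shared by mt-Co3, Tom1 and mt-Atp6 with their copies.

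**Figure D5:**
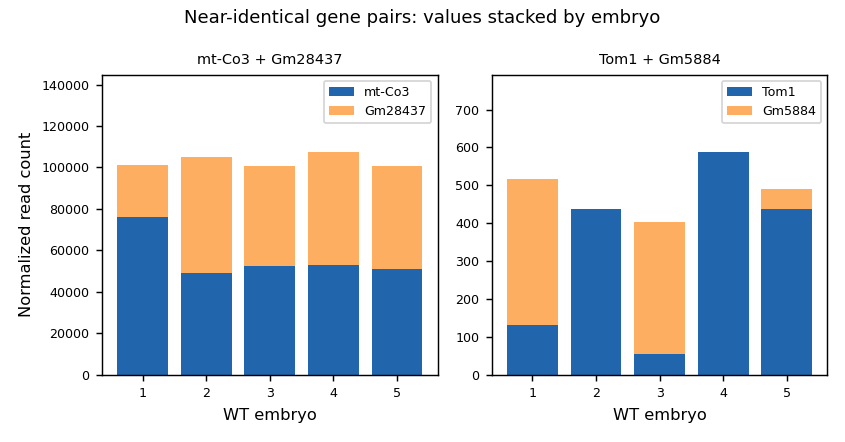
Normalized read counts (vertical axis, from 0) of near-identical gene pairs in WT1 to WT5, with the members of a pair stacked in 1 bar per embryo, so that the height of the bar is their sum. mt-Co3 and Gm28437 differ in WT1 (76187 and 25198), whereas their sum stays between 100458 and 107280.

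Addition of copies did not remove the spread of the alpha-globin genes, which kept a CV of 39.8% in sum. Of the 117 genes, 12 (10.3%) shared at least 50% of their 31-base subsequences with another gene, against 4.26% of all 12624 genes, and 105 genes with an SD above 1 were left when such genes were set aside. Lars2, the mitochondrial leucyl-tRNA synthetase, shared only 0.923% and still ranged over 27768, 9046, 24271, 14879 and 4528 (CV 61.2%). It was named after its values were seen.

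The 12 genes of smallest SD were Eif3g, Gm29666, Klhdc8b, Dnaja2, Wdr92, Crtc1, Abhd16a, Mast3, Sh2b1, Ap5s1, Arl2bp and Ccny. Eif3g, a subunit of translation initiation factor 3, was at 2007, 2026, 2004, 2026 and 2014 (CV 0.517%). Dnaja2, a co-chaperone of Hsp70, was at 4475, 4403, 4441, 4409 and 4434. Every one of the 12 had an SD of at most 0.0154, below the SD from counting alone, as had 625 of the 12624 genes (4.95%). The 13th, Slc39a9, had 0.0155. In embryos not used to choose them, the 12 genes had median SDs of 0.0618 (hetero) and 0.0606 (homo), under the medians of all genes (0.102 and 0.1101) but above their values in WT.

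Genes in common use as references differed in evenness. Of the reference genes given here, the smallest CVs were those of Ywhaz (3.94%), Ppia (4.20%), Sdha (4.26%) and Eef1a1 (4.62%). Pgk1 (5.21%), Hprt (5.70%), Rpl19 (5.84%), Gapdh (6.76%), Actb (7.94%), Rplp0 (9.17%) and Tfrc (9.30%) were between. Polr2a and Rpl13a (both near 10.5%), Tbp (11.7%), Gusb (12.5%) and B2m (19.8%) were the least even. Reln, with 1.27%, and Hspa8, with 1.81%, were more even than any of these, and were compared after their values were seen.

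Sex was the only labeled difference among the WT embryos, and the 3 females were compared with the 2 males by limma on log2(value + 1) over the 16506 genes whose mean reached 5. At a Benjamini-Hochberg adjusted p under 0.05, 37 genes (0.224%) differed, 28 (0.170%) higher in females and 9 (0.0545%) higher in males. Of the 37, 4 were on the X chromosome and 28 on autosomes. Unadjusted p-values were under 0.05 for 2839 genes (17.2%), and the values of the sexes did not overlap for 35.7% of the genes. With 3 against 2 embryos, an exact permutation test of a gene cannot go below a one-sided p of 0.1, or 0.2 when doubled.

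The Y-linked genes Eif2s3y, Ddx3y, Kdm5d and Uty matched the sex labels in all 5 embryos. Eif2s3y, a translation factor subunit, was listed at 0 in the 3 females and at 1800.0 and 2302 in the males. Ddx3y, an RNA helicase, was at 0 in the females and at 1495 and 1583 in the males. Both had an adjusted p of 0.000132 by limma. Kdm5d, a histone demethylase, was at 415, 441 and 446 in the females and 2801 and 3077 in the males (female minus male log2 -2.76, SE 0.08, adjusted p 0.000132 by limma). Uty was at 56.2, 72.9 and 72.9 in the females and 506 and 479 in the males (log2 -2.86, SE 0.18, adjusted p 0.0090 by limma). Kdm5d and Uty thus had counts in females. They share 6.86% and 3.57% of their 31-base subsequences with other genes. Uba1y showed no such pattern (-0.34, adjusted p 0.711 by limma), and Usp9y was at 1.19 in WT4 and 0 elsewhere.

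Genes higher in females included Gm26992, at 1298, 1741 and 2023 in the females and 2.36 and 2.76 in the males (log2 8.87, SE 0.23, adjusted p 0.000132 by limma). Gm26992 shared 94.1% of its 31-base subsequences with genes not listed in the table. Eif2s3x, the X-linked partner of Eif2s3y, was at 10118, 10608 and 10918 against 6729.5 and 6739 (log2 0.65, SE 0.05, adjusted p 0.0272 by limma). Kdm5c was also higher in females (0.54, adjusted p 0.0481 by limma). The other X-linked genes of the list did not pass, with differences of 0.49 for Kdm6a, 0.42 for Pbdc1, 0.25 for Ddx3x and 0.14 for Utp14a. Entpd4, called higher in males, and Mid1-ps1, called higher in females although annotated on the Y chromosome, share 100% and 97.5% of their subsequences with other genes.

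The autosomal genes called higher in females included Uhrf1 and several genes of the cell cycle list. Uhrf1, which maintains DNA methylation at replication, had means of 1795 in females and 995 in males (log2 0.85, SE 0.06, adjusted p 0.0117 by limma). Mcm2, a replicative helicase subunit (0.76), Rrm2, a ribonucleotide reductase subunit (0.74), and Top2a (0.84) were also called. Of the 28 genes of the cell cycle list, 5 were called and all 28 were higher in every female than in every male, against 17.7% of all genes tested. The median difference over the list was 0.69 on the log2 scale, and -0.001 over all genes. Within the hetero and homo groups the median was 0.18 and 0.015, and 3 and 0 of the 28 genes were higher in every female. Few of these genes were thus apart by sex in the other 2 groups, and whether the groups differ was not tested. WT4 and WT5 also stood apart from WT1 and WT2 on the second component, and sex cannot be told apart there from other differences between these embryos. Dct, an enzyme of melanin synthesis, was at 56.1, 80.4 and 99.0 in the females and 3.57 and 4.75 in the males (log2 3.92, SE 0.36, adjusted p 0.0392 by limma). The other 4 of the 9 genes higher in males were Cdr1 (-0.85), Trank1 (-0.44), A830018L16Rik (-0.80) and Matk (-0.60), and all subsequences of Cdr1 also occurred in another gene.

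The number of genes called between the sexes was smaller with any embryo left out. With 1 embryo left out, 4 to 13 genes were called, 6 without WT1, 5 without WT2, 13 without WT3, 5 without WT4 and 4 without WT5. Of the 20 genes followed through these fits, Gm26992, Kdm5d, Eif2s3y and Ddx3y were called each time, and none of Mcm2, Rrm2, Top2a and Dct was called in any. The differences themselves stayed near their values, at 0.74 to 0.79 for Mcm2, 0.71 to 0.77 for Rrm2, 0.76 to 0.92 for Top2a and 0.83 to 0.87 for Uhrf1 on the log2 scale. Without WT4 or WT5, 1 male is left, which is assumed to vary like the females. A fit over all 15 embryos with genotype as a term called 13 genes, 7 of them among the 37, namely Ddx3y, Eif2s3y, Kdm5d, Gm26992, Uty, Eif2s3x and Kdm5c. The X-linked genes Kdm6a (0.42, adjusted p 0.000111 by limma) and Ddx3x (0.21, adjusted p 0.0388 by limma), which did not pass within WT, were called higher in females in that fit. So were the autosomal genes Gys1 (0.37), Elf5 (2.50), Gcn1l1 (0.37) and Bcat2 (0.26), which were not among the 37.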

How the data were processed

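Normalized read counts per gene, a signal that is not whole-numbered, were deposited by the authors for 15 embryos. Per the labels and methods, libraries were made from total RNA with a TruSeq kit, and reads were quantified by the authors with Salmon 0.11.2 (quasi-mapping, GC bias correction) on GRCm38, imported by tximport, and divided by size factors in DESeq2 1.22.2 under R 3.5.3. The annotation release is not given in the sources used here. Size factors assume that most genes do not differ, and quasi-mapping shares reads between near-identical genes. Whole reads could not be recovered, so no count model was used.

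Samples were grouped by the genotype label, and the 5 WT columns were used as deposited. Of 19475 genes, 19469 matched the GRCm38 annotation, which gave transcript lengths and 31-base subsequences shared between genes. Levels, spread (SD of log2(value + 1), mean of at least 100) and 43 marker lists and 66 symbol-defined families are descriptions. Families were read over protein-coding genes. Females and males were compared with limma 3.58.1 (lmFit, eBayes with trend, two-sided, Benjamini-Hochberg, threshold 0.05) in R 4.3.3, on genes whose mean reached 5. The test was tested on simulated data. P-values measure the spread between these samples only.

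Named were the 10 genes of highest count and level, up to 4 leading members and near-absent defining markers of each list, the 12 genes of largest and of smallest SD, the sex-linked and reference lists, genes called between sexes, Tbr1 and Reln. Some genes that this rule takes in are not reported here. Members and lists were chosen with earlier results of these data known. Alternatives were other transcript lengths, pseudocounts, filters, scalings and embryos left out.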

Additional observations from a re-analysis of the deposited data

Results flagged for a closer look

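Over the 238 named genes and 56 sums and shares, 21 had an embryo whose gap to the nearest of the others was more than 0.71 of the whole range of the 5 WT embryos. About 1 in 20 groups of 5 independent, normally distributed values would show such a gap by chance. The values here are counts, and part of the genes were named by their level or spread, so that rate does not apply to them. The gap lay in WT1 for 8, WT2 for 1, WT3 for 3, WT4 for 6 and WT5 for 3 of them.

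In WT1, mt-Co3 was high (76187 against 49176 to 52792) and its nuclear copy Gm28437 low (25198 against 48201 to 55870). WT1 was also high for pituitary genes in sum (347 against 21.7 to 74.9), and for Tshb (59.7 against 0 to 3.64) and Gh (57.3 against 0), both pituitary hormone genes. The same embryo was high for the cartilage proteoglycan Acan (100.4 against 15.1 to 25.1), the epithelial adhesion gene Epcam (101 against 31.4 to 44.2) and the fetal liver gene Afp (16.4 against 0 to 1.86).

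In WT2, the interferon-induced gene Isg15 was at 53.7 against 29.8 to 33.7. In WT3, Pdgfra was at 894 against 1823 to 2073, the endothelial receptor Kdr at 1267 against 1848 to 2069, and Tph1 at 14.2 against 1.69 to 4.91.

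In WT4, Gad1 was at 5847 against 4857 to 5129, the matrix gene Tnc at 9769.5 against 8030.2 to 8468, Mbp at 1509 against 891 to 1033, and the reference gene Hprt at 998 against 874 to 908. Hoxa5 was at 406 against 0 to 52.1 there, and the Y-linked gene Usp9y at 1.19 against 0.

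In WT5, the striatal genes summed to 9138 against 10867 to 11523, the cerebellar and rhombic lip genes to 12079.8 against 14045 to 14598, and the ependyma and cilia genes to 1026 against 801 to 864.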

How the results depend on the processing

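The count of genes called between sexes (37) was 10 with no filter, 90 with robust variance moderation, 13 over all 15 embryos and 4 to 13 with 1 embryo left out. Pseudocounts of 0.1 and 10, a mean of at least 50 and upper-quartile rescaling gave 31 to 52. The share of the level held by the 100 highest genes (22.0%) was 29.2% with merged exon length, 25.8% with the longest and 24.8% with the principal transcript, 14.7% with no length and 19.4% without mitochondrially encoded genes, and 21.9% to 22.0% with 1 embryo left out. With no length, 6 of the 10 highest families stayed among the 10 highest. Taken as the median instead of the mean over members, the log2 level was 14.28 for the pan-neuronal, 9.67 for the telencephalic and 5.75 for the erythroid list. Genes with an SD above 0.5 (458) and above 1 (117) numbered 1120 and 296 at a mean of at least 20, 128 and 27 at a mean of at least 500, 290 and 50 without WT3, and 290 to 538 and 50 to 130 over the embryos left out. The first and second filters admit more and fewer genes; the cause of the other changes was not tested. None of the 20 genes followed between the sexes changed direction, and the counts, shares and list means had no direction to change. No paired analysis was possible because the only comparison was between females and males within WT, whose embryos share no replicate number. Depth limits genes under a mean of 100, whose spread from counting is largest.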

Other observations

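Several groups of genes outside the comparisons above had plain levels in the WT brain. Proteasome subunits had a median level of 112 ppm (length-scaled, of 1000000) over 50 genes, with a median SD of 0.066 between embryos, and complex I subunits 100 over 37 genes, with 0.075. Aminoacyl-tRNA synthetases (40.6), mitochondrial ribosomal proteins (33.1), Rab GTPases (29.0) and kinesins (15.4) followed. Semaphorins and the ephrins with their Eph receptors, which guide growing axons, had medians of 29.9 and 29.2, above clustered protocadherins (6.58), which give neurons their surface identity.

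Nuclear copies of mitochondrial genes together held 0.255%, 0.355%, 0.308%, 0.382% and 0.358% of the summed normalized read counts in WT1 to WT5; Gm28437 alone ranked 28 by mean count.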
